A study of Mus musculus with 1 sample.

Results

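The genes described here are 10 genes of ovarian steroid hormone production, with its enzymes, its cholesterol supply and the receptors of the gonadotropins. They were listed by name and read in cells of the ovarian surface epithelium from wild-type mice, 3 months old, through every probe set of the array that names only that gene. Of the 10 genes 8 had such a probe set, with 14 probe sets among them, out of 18193 genes and 34945 probe sets in the whole table. Lhcgr and Cyp19a1 had none in the annotation used and were not analysed here. The sample was a single Affymetrix expression array, so no level has a replicate error and no test between groups was made. The series design names 3 genotypes, of which only the wild type was read here, in 1 sample. The sources used here give no strain, no number of mice behind the sample and no account of how the cells were collected.

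Steroid hormones are made from cholesterol in steps that are split between cells of the ovary. Scarb1 takes cholesterol up from lipoproteins, Star carries it into mitochondria, and Cyp11a1 cuts its side chain to give pregnenolone, which Hsd3b1 turns into progesterone. Cyp17a1 leads to androgens, Cyp19a1 (aromatase) to estrogens, Hsd17b1 makes estradiol from estrone, and Akr1c18 inactivates progesterone. In the classical account theca cells make androgens under luteinising hormone, granulosa cells convert them to estrogens under follicle-stimulating hormone, and luteal cells make progesterone. The surface epithelium is a mesothelial layer over the ovary that is not counted among the main steroid-producing cells.

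An intensity is the brightness of a probe set on a linear scale, and a gene was called above background when its brightest probe set exceeded 46.5, or 5.54 on the log2 scale. This limit is the 95th percentile of 126 background probe sets. They belong to keratin-associated proteins and to receptors for smell, pheromones and bitter taste, genes not expected in ovary, and ranged from 7 to 125 with a median of 13. Of all 18193 genes 62.8% were above it. Levels of single genes are not ranked against each other, since probe sets differ in affinity. The only spread available was that between probe sets of one gene, whose median SD over 9010 genes was 1.39 on the log2 scale. It is given for scale and is not the error of a single probe set.

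Of the 8 measured members 5 were above the limit, Scarb1, Star, Cyp11a1, Hsd3b1 and Akr1c18, and 3 were below it, Fshr, Cyp17a1 and Hsd17b1. Cyp11a1 passed on 1 of 3 probe sets, and each of the 3 members below had 1 probe set and lay within 1.39 of the limit on the log2 scale. This is 62.5% against 62.8% of all genes, so as a count the members did not stand apart. As a description only, the median of their brightest probe sets was 6.93 on the log2 scale, and that over all genes was 7.06. Of the 5 members with 1 probe set 2 were above the limit, where 47.3% of all genes with 1 probe set were. The 3 members with 3 probe sets were all above it by their brightest, where 82.9% of such genes were.

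**Figure D1:**
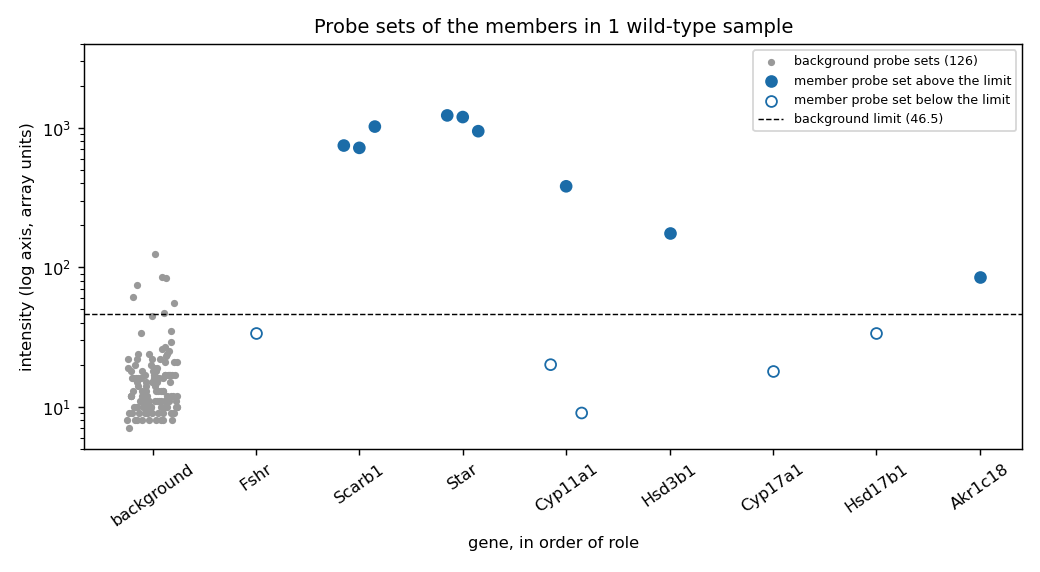
Intensity on a log axis of each probe set of the 8 measured members, in order of role, beside the 126 background probe sets in grey. The dashed line is the limit of 46.5. All probe sets of Scarb1 and Star lie above every background probe set, those of Cyp11a1 lie on both sides of the limit, and Akr1c18 lies among the highest background probe sets.

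Fshr encodes the receptor for follicle-stimulating hormone, which granulosa cells carry. Its 1 probe set (1450810_at) had an intensity of 34, a difference of -0.45 from the limit on the log2 scale. A total of 10 of the 126 background probe sets were at or above that intensity. The gap to the limit was smaller than the median SD of 1.39 between probe sets of one gene, so a low level of Fshr cannot be told apart from none on this array. Fshr was above the limit when this was set at the 90th percentile of background or from olfactory and vomeronasal receptors only.

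Scarb1 encodes a surface receptor that takes cholesterol esters from high-density lipoprotein. Its 3 probe sets had intensities of 1022, 747 and 719. All 3 were above the limit, the brightest by 4.46 and the dimmest by 3.95 on the log2 scale, and the SD between them was 0.28. None of the background probe sets reached any of the 3. All 3 identifiers carry a mark for several transcripts of a gene or for probes that can match other sequences (1416050_a_at, 1437378_x_at and 1455820_x_at), so Scarb1 has no value without marked probe sets.

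Star encodes the protein that moves cholesterol to the inner mitochondrial membrane, the acutely regulated step of steroid synthesis. Its 3 probe sets (1418728_at, 1418729_at and 1449201_at) had intensities of 1229, 1196 and 947. Each was above the limit, the dimmest by 4.35 on the log2 scale. The SD between them was 0.21. Of all 2366 genes with 3 probe sets 29.2% had all 3 above the limit, and among the members Star and Scarb1 did. Star was above the limit under all 8 alternative settings.

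Cyp11a1 encodes the mitochondrial side-chain cleavage enzyme, which commits cholesterol to steroid synthesis. Its 3 probe sets gave 381, 20 and 9. The first (1448804_at) was above the limit by 3.03 on the log2 scale and above all background probe sets. The other two were below it, at -1.22 (1439947_at) and -2.37 (1457604_x_at), and 27 and 116 of the 126 background probe sets were at or above them. The SD between the 3 was 2.85 on the log2 scale, over the median of 1.39 for all genes. The bright probe set is the one that the annotation pairs with a RefSeq mRNA. Over the whole array 59% of such probe sets were above the limit, against 53.7% of those paired with another accession, and among the members 4 of 7 such probe sets were. Probe sets on both sides of the limit were found in 46.7% of the 9010 genes with several, so the call of Cyp11a1 rests on 1 probe set, and it ended with the mean (-0.18) or the lowest (-2.37) of the 3.

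Hsd3b1 encodes a 3-beta-hydroxysteroid dehydrogenase of gonads and adrenal, which forms progesterone from pregnenolone. Its 1 probe set (1448453_at) had an intensity of 175, above the limit by 1.91 on the log2 scale and above all 126 background probe sets. This gap exceeded the median SD of 1.39 between probe sets of a gene, which is not the error of this 1 probe set. Hsd3b1 fell below the limit under 1 of 8 alternatives, the one that took genes of other organs as background, whose limit was 315.2.

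Cyp17a1 encodes the enzyme that turns progestagens into androgens, a product of theca cells. Its 1 probe set (1417017_at) had an intensity of 18, at -1.37 from the limit on the log2 scale, close to the median SD of 1.39. In the background set 34 of 126 probe sets were at or above it. Cyp17a1 was below the limit under all 8 alternatives.

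Hsd17b1 encodes the granulosa-cell enzyme that reduces estrone to estradiol. Its 1 probe set (1449392_at) had an intensity of 34, which put it at -0.45 from the limit on the log2 scale. It changed sides under the same pair of alternatives as Fshr.

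Akr1c18 encodes 20-alpha-hydroxysteroid dehydrogenase, which inactivates progesterone when the corpus luteum regresses. Its 1 probe set (1419136_at) had an intensity of 85, above the limit by 0.87 on the log2 scale. It was above 98.4% of the background probe sets, 2 of which were at or above it. The gap was smaller than the median SD of 1.39 between probe sets of a gene. At the 99th percentile of background the limit was 84.75, a gap that the rounding of the deposited values to whole numbers could open or close.

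Of the 8 alternative settings, those without marked or with shared probe sets also moved the limit, to 45.3 and 35.85, because it was taken anew from their background probe sets. The 8 settings left Star and Scarb1 above the limit wherever they had a value, and Cyp17a1 below it. The other 5 members, Fshr, Hsd17b1, Cyp11a1, Hsd3b1 and Akr1c18, changed sides under at least 1 setting. The number of members above the limit was between 3 and 7. It was 3 of 8 with genes of other organs as background, where 36.5% of all genes were above the limit. At the 90th percentile it was 7 of 8, where 73.2% of all genes were.

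**Figure D2:**
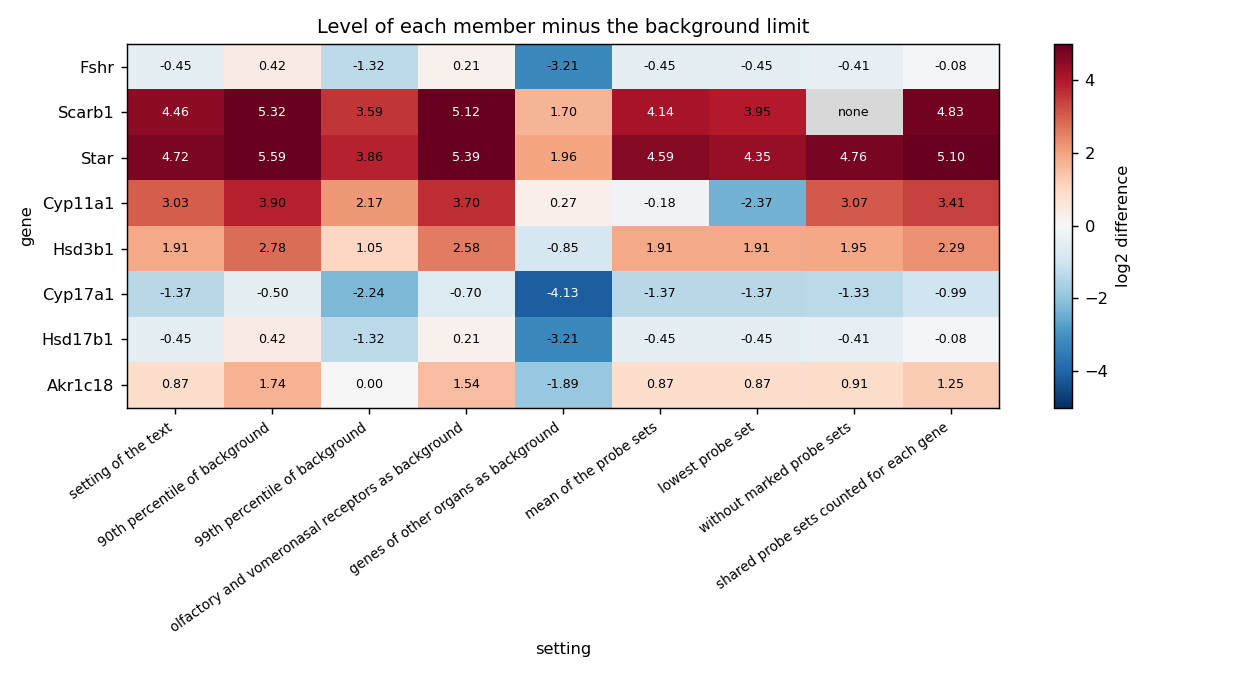
Level of each measured member minus the background limit, as a log2 difference, in the setting of the text and in 8 alternatives; red is above the limit and blue below. Star is above the limit in every column and Cyp17a1 below it, while Fshr and Hsd17b1 move from -0.45 to 0.42 with the limit at the 90th percentile.

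Promoter sequences of RefSeq (GRCm38.p6, 250 bases before a listed start and 50 after it) matched 6 of the 10 members, with 9 starts. They are shown for Cyp11a1 and Akr1c18, which were above the limit, and for Fshr, which was below, because these were the measured members whose promoters held a motif that was searched. The motifs, looked for on both strands, were the nuclear receptor half-site AGGTCA, the longer forms CAAGGTCA and CAAGGCCA bound by NR5A receptors, the E-box CACGTG and the TATA box TATAAA. The first is contained in the second. Capitals mark the matches. The Cyp11a1 promoter is the one at chr9:58014702-58015001 on the plus strand, 1 of 2 listed for this gene. That of Akr1c18 is at chr13:4150597-4150896 and that of Fshr at chr17:89200626-89200925, both on the minus strand.
Cyp11a1: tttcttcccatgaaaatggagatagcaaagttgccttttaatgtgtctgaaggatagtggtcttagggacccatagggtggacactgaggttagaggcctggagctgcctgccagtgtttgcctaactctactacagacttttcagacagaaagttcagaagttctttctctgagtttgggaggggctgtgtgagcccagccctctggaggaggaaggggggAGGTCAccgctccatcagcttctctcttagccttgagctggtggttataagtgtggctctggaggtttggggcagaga
Akr1c18: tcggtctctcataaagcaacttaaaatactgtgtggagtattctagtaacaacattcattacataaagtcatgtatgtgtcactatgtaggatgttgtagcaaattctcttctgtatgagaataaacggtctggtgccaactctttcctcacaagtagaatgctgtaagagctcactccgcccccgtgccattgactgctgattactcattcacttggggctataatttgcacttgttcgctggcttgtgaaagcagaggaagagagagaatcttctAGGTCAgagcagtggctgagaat
Fshr: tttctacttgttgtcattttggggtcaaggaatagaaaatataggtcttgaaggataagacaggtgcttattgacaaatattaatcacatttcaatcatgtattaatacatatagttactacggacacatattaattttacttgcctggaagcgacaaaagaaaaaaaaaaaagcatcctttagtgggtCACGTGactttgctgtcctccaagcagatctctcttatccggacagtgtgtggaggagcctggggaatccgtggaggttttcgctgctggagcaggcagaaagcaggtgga
The half-site AGGTCA began 28 bases before the listed start of Cyp11a1 and at base 28 of the Akr1c18 transcript, and the E-box began 61 bases before the start of Fshr. Of all 32851 promoters 16.3% held AGGTCA and 7.15% held CACGTG, so neither match is rare. The single Hsd3b1 promoter, the other of Cyp11a1 and that of Fshr held no AGGTCA, and those of Lhcgr and of 1 of 3 Cyp19a1 starts did. Star, Scarb1, Cyp17a1 and Hsd17b1 had no promoter in the table. A match describes letters and not a bound site.

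Relatives of the member enzymes were divided by the limit in the same array. Of 5 measured other 3-beta-hydroxysteroid dehydrogenases 2 were above it. Hsd3b2 and Hsd3b5 had 11 each, and Hsd3b3, a form of liver and kidney, had 38 and 15. The pair above the limit works outside hormone synthesis. Hsd3b7, an enzyme of bile acid synthesis, had 814, and Nsdhl, an enzyme of cholesterol synthesis, had 409. Hsd3b1 was thus the only measured gene among Hsd3b1, Hsd3b2, Hsd3b3 and Hsd3b5 above the limit of 46.5. Under 3 alternatives that lowered the limit, the 90th percentile, olfactory and vomeronasal receptors, and shared probe sets with their limit of 35.85, the 38 of Hsd3b3 was above it too.

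Of 11 measured other 17-beta-hydroxysteroid dehydrogenases 7 were above the limit, or 63.6%, against 62.8% of all genes. Among the 11 genes 8 had several probe sets, and of all genes with several 78.7% were above it by their brightest. Hsd17b2, which oxidises estradiol back to estrone, had 141. Hsd17b3, the testis enzyme that makes testosterone, had 13. Hsd17b4, an enzyme of peroxisomal fatty acid oxidation, had 886 and 823. The next pair was chosen after the values were seen. Hsd17b7, which acts in cholesterol synthesis and can form estradiol, had 263, 71, 57 and 18, and Hsd17b12, an enzyme of fatty acid elongation, had 2120 and 915. Hsd17b1 at 34 and Hsd17b3 at 13 lay below the limit, and Hsd17b2 and the brightest probe set of Hsd17b7 lay above it. Hsd17b2 (-1.16) and Hsd17b7 (-0.26) were below the limit with genes of other organs as background. Hsd17b1 (0.42) was above it at the 90th percentile of background.

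Of 13 measured other Akr1 reductases 7 were above the limit, or 53.8%, against 62.8% of all genes. Among the 13 genes 6 had several probe sets. The share above the limit was 78.7% of all genes with several and 47.3% of those with 1. Akr1c6, a liver 17-beta-hydroxysteroid dehydrogenase, had 14. Akr1c12 had 16 and Akr1c13 had 213, while a probe set shared by the pair had 208. Akr1c14, named after its values were seen, is a 3-alpha-hydroxysteroid dehydrogenase that reduces dihydroprogesterone and dihydrotestosterone, and it had 1084. By their lowest probe set 4 of the 13 were above the limit, where 39.7% of all genes were. Genes of the Akr1c cluster are near-identical copies in parts of their sequence, so a level of Akr1c18 or Akr1c13 could include signal from a relative. This was not tested.

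**Figure D3:**
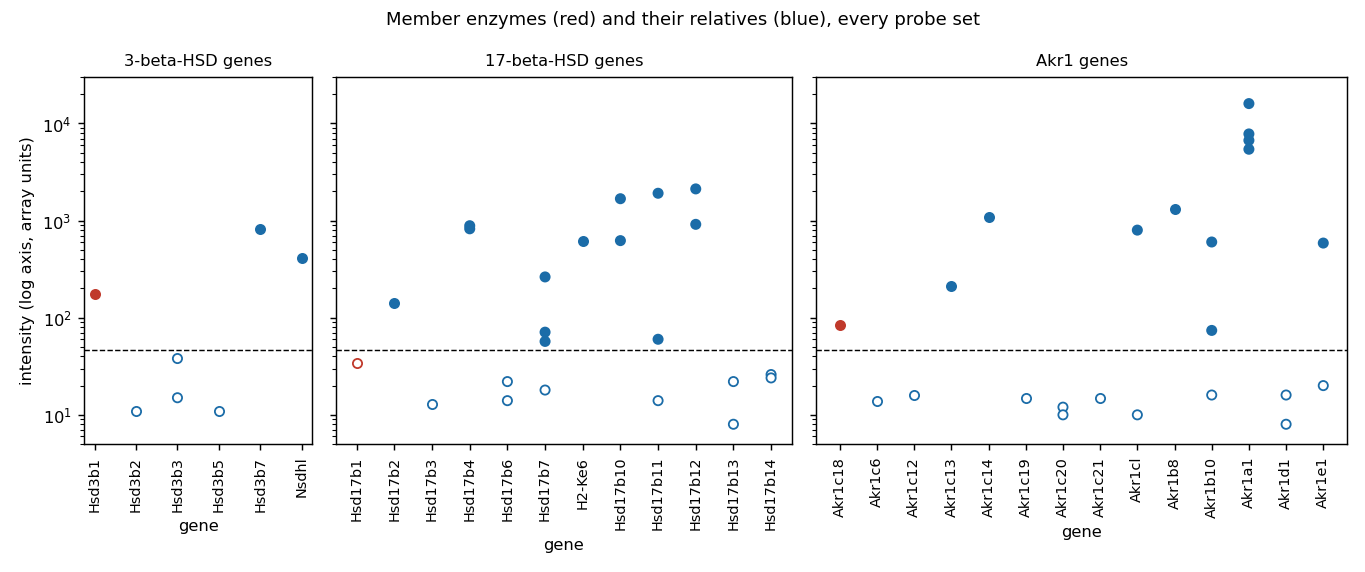
Intensity on a log axis of each probe set of Hsd3b1, Hsd17b1 and Akr1c18 (red) and of measured relatives (blue); filled points are above the limit of 46.5 (dashed) and open points below it. Hsd3b1 is above the limit beside Hsd3b2, Hsd3b3 and Hsd3b5 below it, and each family has genes on both sides.

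Reduction, glucocorticoid, adrenal and conjugation enzymes had 3 of 8 measured genes above the limit, or 37.5%, against 62.8% over the whole array. This count ran from 1, with other-organ background or the lowest probe sets, to 5 at the 90th percentile. Only 2 of the 8 were read by several probe sets. Array-wide, a lone probe set passed for 47.3% of the genes so read, and the brightest of several for 78.7%. The count is therefore not taken as low for this list. Srd5a1, Srd5a2 and Sts, also on the list, were not measured. Srd5a3, a reductase that acts in the making of dolichol, had 496, 474, 473, 320 and 25. Hsd11b1, which activates glucocorticoid, had 40, and Hsd11b2, which inactivates it, had 28. Cyp21a1, the adrenal 21-hydroxylase, had 91 and 17. Sult1e1, which inactivates estrogen by sulfation, had 55.

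The supply of cholesterol and electrons to the pathway was above background beyond Star and Scarb1. Of 10 measured genes of cholesterol supply 9 were above the limit, and 4 by their lowest probe set. By the lowest probe set 39.7% of all genes were above it. Among the 10 genes 8 had several probe sets, and of all genes with several 78.7% were above the limit by their brightest. Lrp1, a lipoprotein receptor, had 2800 and 42. Lipe, the hormone-sensitive lipase that frees stored cholesterol, had 119 and 14. Npc1, which releases cholesterol from lysosomes, had 436. Abcg1, a cholesterol exporter, was the 1 gene below the limit, with 28 and 16. Tspo, a protein of the outer mitochondrial membrane named after its values were seen, had 3296, 2245 and 1649. All 4 measured electron donors and their partners were above the limit, where 62.8% of all genes were. Fdx1, the ferredoxin that feeds Cyp11a1, had 1974. Cyb5a, a cytochrome that assists Cyp17a1, had 6069, and Cyb5r3, its reductase, had 4193, 3592, 541 and 34. Without marked probe sets Cyb5a had no value, and 2 of 3 were above the limit. These genes serve other pathways of the cell as well.

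Of 18 measured transcriptional regulators of steroid genes 15 were above the limit, or 83.3%, and 9 by their lowest probe set. By the lowest probe set 39.7% of all genes were above it. Among the 18 genes 12 had several probe sets, and of all genes with several 78.7% were above the limit by their brightest. Nr5a1, the nuclear receptor (steroidogenic factor 1) that activates most genes of the pathway, had 407 on 1 probe set and 21 on the other. Its relative Nr5a2, a regulator of granulosa and luteal cells, had 43, 17, 15 and 14, all below 46.5. Nr0b1, which represses Nr5a1, had 23, and Nr2f1 had 18, and these 3 were the regulators below the limit. The following were chosen after their values were seen. Gata4 had 663 and 58 and Gata6 had 5024, 927 and 90, factors that act on Star and other steroid genes. Foxl2, a granulosa cell factor, had 321 and 11.

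The signalling chain behind gonadotropin receptors was above the limit in 15 of 16 measured genes, or 93.8%. Of the 16 genes 14 had several probe sets, and of all genes with several 78.7% were above the limit by their brightest. The count was 9 with genes of other organs as background and 5 with the lowest probe set. Gnas, the stimulatory G protein subunit, had 14538 on 1 of 5 probe sets and at most 30 on the rest. Adcy3, an adenylyl cyclase, had 526, 360, 156 and 63, and Adcy6 had 493. Prkaca, the catalytic subunit of protein kinase A, named after its values were seen, had 1542 and 459. Arrb1, an arrestin that ends receptor signals, had 34 and was the 1 gene below. These are general signalling genes. Of 7 measured hormone subunits and their other receptors 1 was above the limit. Cga, the subunit shared by the pituitary gonadotropins and thyrotropin, had 26, Lhb had 28 and Fshb had 11. Gpha2, an alpha subunit of another glycoprotein hormone, was the 1 above, at 73. The count was 3 at the 90th percentile of background, and 0 at the 99th or with other-organ background.

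Receptors for the products of the pathway were above the limit in 7 of 11 measured cases, or 63.6%. The count was 4 with other-organ background and 3 by their lowest probe set. Of all genes 62.8% were above the limit, 36.5% with other-organ background and 39.7% by the lowest probe set. Esr1, estrogen receptor alpha, had 2789, 442 and 19, and Esr2, estrogen receptor beta, had 17. Pgr, the progesterone receptor, had 228, 17 and 14.

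The labelled cell type was checked against its markers, since steroid genes could come with other ovarian cells. All 12 markers of surface epithelium and mesothelium were above the limit, with brightest probe sets from 2047 to 20836. Of all genes 62.8% were above it. Krt7, Krt8 and Krt18, keratins of simple epithelia, had 8204, 4573 to 3172, and 3377. Of 8 measured granulosa cell markers 7 were above the limit, with brightest probe sets from 43 to 1438. By their lowest probe set 4 were above it, where 39.7% of all genes were. Among these 8 markers 6 had several probe sets, and of all genes with several 78.7% were above the limit by their brightest. Inha, the alpha subunit of inhibin, had 1438, Inhba had 797 and 19, and Inhbb had 311 and 98. Fst (follistatin) had 873 and 188 and Amh had 58, both named after their values were seen. Nr5a2, at -0.11 on the log2 scale, was the 1 granulosa cell marker below the limit. Of the members, Fshr and Hsd17b1, which granulosa cells also express, were below it too, at -0.45 each. Cyp17a1 was also below it, and Scarb1, Star, Cyp11a1, Hsd3b1 and Akr1c18 were above it. Against a lower limit of 25.5, Nr5a2 (0.75), Fshr (0.42) and Hsd17b1 (0.42) passed, so their calls are not settled.

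Markers of theca and interstitial cells were above the limit in 2 of 4 measured cases, in 1 with other-organ background and in none by the lowest probe set. Of all genes 62.8% were above the limit, 36.5% with other-organ background and 39.7% by the lowest probe set. Gli1 and Hhip, targets of hedgehog signals, had 19 and at most 17, and Ptch1, another, had 269, 39 and 16. Nr5a1, also counted among the transcriptional regulators, had 407 and 21. Of 3 measured luteal markers 2 were above it. Ptgfr, the prostaglandin receptor that starts luteal regression, had 35 on the brightest of 5 probe sets. Sfrp4, a secreted WNT antagonist, had 670, and Parm1 had 449 and 202. None of 10 oocyte markers was above it (1 was under the 3 lower limits), with a highest value of 42, and Zp1, Zp2 and Zp3, egg coat genes, had 18, 16 and 20. All 7 fibroblast and stroma markers were above it, from 307 to 29972 on their brightest probe sets, among them Col1a1, Col1a2 and Col3a1, chains of fibrillar collagen, at 8290, 29972 and 22640. Of 7 endothelial markers 1 was above it, Kdr at 1813, while Pecam1, Cdh5 and Tek had 14, 23 and 21 on their brightest. All 7 macrophage markers were above it, with Csf1r at 527, Cd68 at 334 and Adgre1 at 47 on the edge of the limit, and 4 of the 7 were above it with other-organ background. The part of granulosa, luteal or stromal cells in the levels of Star, Scarb1, Cyp11a1, Hsd3b1 and Akr1c18 was not tested. In a bulk sample fewer cells of a type and less RNA per cell cannot be told apart.

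**Figure D4:**
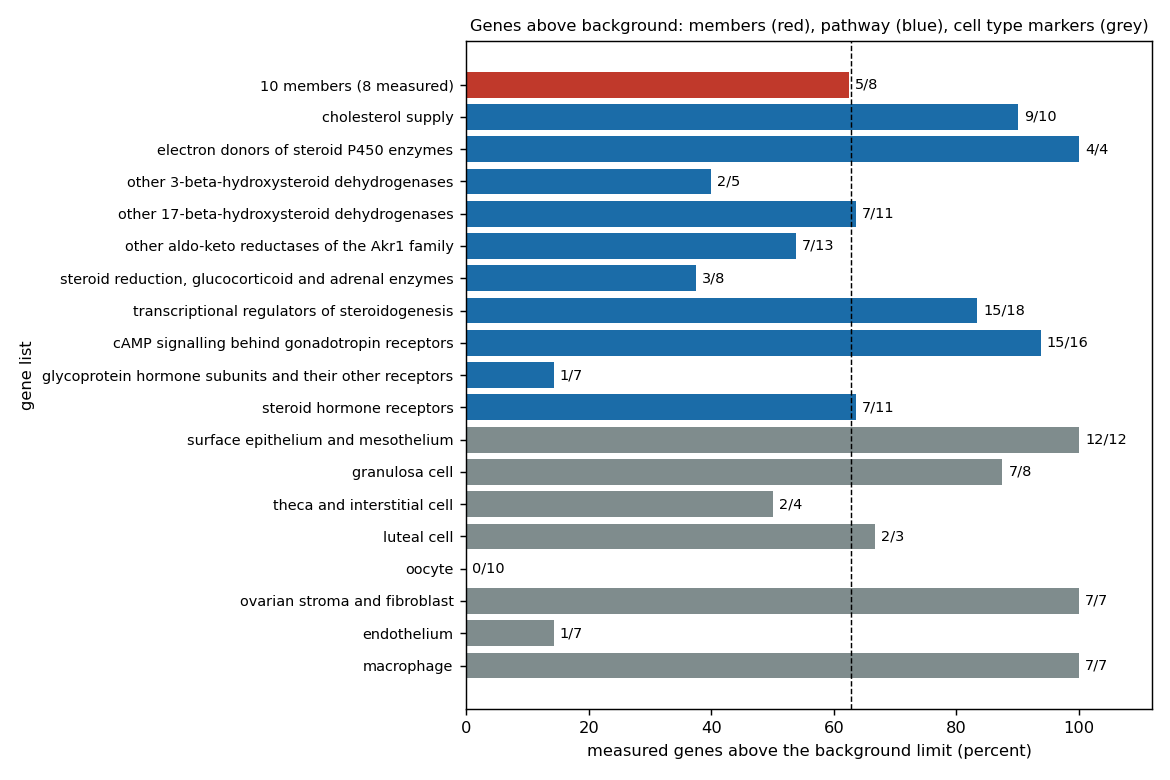
Percent of measured genes above the background limit in each list, with counts; the members are red, pathway lists blue, cell type markers grey, and the dashed line is the 62.8% of all genes. The line covers genes with any number of probe sets, and lists of genes with several probe sets have a higher like share. The members are at 5 of 8, signalling genes at 15 of 16 and oocyte markers at 0 of 10.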

How the data were processed

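Total RNA of ovarian surface epithelial cells was labelled with biotin and hybridised to 1 array, per the labels. The authors deposited 1 intensity per probe set for 45101 probe sets, whole numbers from 6 to 32341. Affy and RMA were used, per the submitters' processing notes, without versions. The sources used here do not give which arrays were normalized together, nor the step from log2 values to whole linear numbers. RMA shrinks differences between low intensities.

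Intensities were put on the log2 scale and named through a table of the platform annotation. A total of 932 probe sets with several symbols, 9160 with none and 64 controls were left out. Gene numbers of all 8 measured members matched the GRCm38.p6 gene table. The background limit was the 95th percentile of 126 probe sets of 4 families (112 genes), and a gene took the level of its brightest probe set. With 1 array there was no test, and percentages describe this sample. The calling step was run on simulated data, with some genes drawn from over the limit and the rest from the background values. Its outcome was largely set by that design, so it checked the code and not the calls.

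Members and lists were chosen with earlier results of these data known. All members were named, and of each list the first 3 measured genes, with those above or below the limit where at most 3 were. Other genes were named after their values were seen, as marked. H2-Ke6 stood for Hsd17b8. Nr5a1, Nr5a2, Foxl2 and Wt1 were each counted in the list of transcriptional regulators and in a cell type list. Alternatives were the 90th or 99th percentile, other background genes, the mean or lowest probe set, marked probe sets left out and shared ones added, the last pair with the limit taken anew. The work was done in Python 3.11.15 with pandas 2.3.3 and NumPy 2.4.6, and plots in matplotlib 3.10.9.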

Additional observations from a re-analysis of the deposited data

Results flagged for a closer look

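Probe sets that name several genes entered no count, and 2 of the 5 that name a gene of the lists were above the limit of 46.5. A probe set shared by Akr1c12 and Akr1c13 had an intensity of 208, above the limit by 2.16 on the log2 scale, where the probe set of Akr1c12 alone had 16 and that of Akr1c13 alone had 213. A probe set shared by Jak3 and Insl3 had 202, above the limit by 2.12 on the log2 scale, and another shared by the same pair had 13. Insl3, a hormone of theca and Leydig cells, has no probe set of its own in the annotation used, and its level cannot be read from a probe set that also names Jak3. The other three shared probe sets had 13, 14 and 14. They name Jak3 and Insl3, Hsd3b4 with Gm4450 and Gm10681, and Hsd3b6 with Hsd3b3 and Hsd3b2, and all were below the limit.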

How the results depend on the processing

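The calls were recomputed under 8 alternatives. A further one, chosen after seeing the data, kept the limit at 46.5 with shared probe sets, for the genes that these had moved. Of 90 named genes 51 kept their side of the limit wherever they had a value, Star, Scarb1 and Cyp17a1 among them. Values in parentheses are the log2 level minus the limit for genes that changed sides. Counts of genes above the limit are given where they moved by over 1.5 times. Of all genes 62.8% were above the limit in the setting of the text, 73.2% at the 90th percentile and 55.3% at the 99th. With genes of other organs as background 36.5% of all genes were, and by the lowest probe set 39.7%. The cause was not tested, except that a lower limit or a lower summary moves calls by construction. With the limit at the 90th percentile, Fshr (0.42), Hsd17b1 (0.42), Abcg1 (0.13), Hsd3b3 (0.58), Hsd11b1 (0.65), Hsd11b2 (0.13), Nr5a2 (0.75), Arrb1 (0.42), Cga (0.03), Lhb (0.13), Ptgfr (0.46) and Nr3c2 (0.79) changed sides, and counts moved for reduction and adrenal enzymes from 3 to 5, hormone subunits from 1 to 3 and oocyte markers from 0 to 1. With the limit at the 99th percentile, Sult1e1 (-0.62), Gpha2 (-0.22), Adgre1 (-0.85) and Amh (-0.55) changed sides, and counts moved for hormone subunits from 1 to 0. With olfactory and vomeronasal receptors as background, Fshr (0.21), Hsd17b1 (0.21), Hsd3b3 (0.38), Hsd11b1 (0.45), Nr5a2 (0.55), Arrb1 (0.21), Ptgfr (0.26) and Nr3c2 (0.59) changed sides, and counts moved for oocyte markers from 0 to 1. With genes of other organs as background, Hsd3b1 (-0.85), Akr1c18 (-1.89), Lipe (-1.41), Hsd17b2 (-1.16), Akr1c13 (-0.57), Cyp21a1 (-1.79), Sult1e1 (-2.52), Gpha2 (-2.11), Pgr (-0.47), Inhbb (-0.02), Ptch1 (-0.23), Adgre1 (-2.75), Hsd17b7 (-0.26), Amh (-2.44), Paqr7 (-0.26) and Paqr8 (-1.89) changed sides, and counts moved for members from 5 to 3, reduction and adrenal enzymes from 3 to 1, cAMP signalling from 15 to 9, hormone subunits from 1 to 0, steroid hormone receptors from 7 to 4, theca markers from 2 to 1 and macrophage markers from 7 to 4. With the mean of the probe sets, Cyp11a1 (-0.18), Lipe (-0.19), Cyp21a1 (-0.24) and Pgr (-0.30) changed sides. With the lowest probe set, Cyp11a1 (-2.37), Lrp1 (-0.15), Lipe (-1.73), Cyb5r3 (-0.45), Srd5a3 (-0.90), Cyp21a1 (-1.45), Nr5a1 (-1.15), Gnas (-1.95), Esr1 (-1.29), Pgr (-1.73), Inhba (-1.29), Ptch1 (-1.54), Hsd17b7 (-1.37), Foxl2 (-2.08), Nr3c1 (-1.63) and Paqr8 (-1.29) changed sides, and counts moved for all pathway genes from 70 to 37, cholesterol supply from 9 to 4, Akr1 reductases from 7 to 4, reduction and adrenal enzymes from 3 to 1, transcriptional regulators from 15 to 9, cAMP signalling from 15 to 5, steroid hormone receptors from 7 to 3, granulosa cell markers from 7 to 4 and theca markers from 2 to 0. With marked probe sets left out and the limit at 45.3, Cyb5r3 (-0.41) and Gnas (-0.59) changed sides, and counts moved for electron donors from 4 to 2 and other 3-beta-hydroxysteroid dehydrogenases from 2 to 1. With shared probe sets counted for each gene they name and the limit at 35.85, Hsd3b3 (0.08), Akr1c12 (2.54), Hsd11b1 (0.16), Nr5a2 (0.26) and Nr3c2 (0.30) changed sides, and counts moved for oocyte markers from 0 to 1. With shared probe sets counted and the limit kept at 46.5, Akr1c12 (2.16) changed sides. Of the genes that changed sides with shared probe sets at 35.85, Akr1c12 alone did so with the limit kept. Without marked probe sets 9 named genes had no value, among them Scarb1, Cyb5a and Hsd3b7, so that 3 electron donors and 4 other 3-beta-hydroxysteroid dehydrogenases were measured. No paired analysis was possible because there was 1 sample. Read depth does not apply to an array. Calls are limited by signal over background, by the choice of probe set and by probes that match relatives. Fshr, Hsd17b1, Cyp17a1 and Akr1c18 lay within 1.39 of the limit on the log2 scale, the median SD between probe sets of a gene, and Cyp11a1 had probe sets on both sides, so these are not settled. That SD is not the error of a single probe set. Hsd3b1 had 1 probe set, above the limit by 1.91. It fell below with genes of other organs as background (-0.85), so its call is not settled either.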

Other observations

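Other steroid-related genes of the same lists add values not given above. Nr3c1, the glucocorticoid receptor, had 635, 438, 326, 21, 20 and 15, and Nr3c2, the mineralocorticoid receptor, had 44, below the limit of 46.5. Pgrmc1, a membrane haem protein linked to progesterone responses, had 7859. Paqr7 and Paqr8, membrane progestin receptors, had 263 and 48, and 85, 79, 51 and 19. Tshr, the thyrotropin receptor and a relative of Fshr, had 24, 10 and 10, and Gnrhr, the receptor of the hypothalamic hormone that drives gonadotropin release, had 16, 12 and 10. Cyp11b1 and Cyp11b2, the last enzymes of adrenal corticosteroid synthesis, had 15 each. These genes were chosen after their values were seen.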
